A study of Mus musculus with 28 samples.

Results

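Ribosomal RNA (rRNA) fragments were quantified in small RNA libraries from the blood of 14 mice. The transcripts described here were chosen by their counts: of 356 rows annotated as rRNA among the 80668 RNAs of the table, 195 had at least 100 counts summed over all 28 libraries. The symbols of 128 of these began with n-R5s, the naming series of the mouse nuclear 5S rRNA copies, and 67 had other symbols. The 195 transcripts held 99.996% of the 118838914 rRNA counts. Because the counts chose them, their levels are given as a description. The lowest sums inside the threshold were 103 for n-R5s31, 101 for Gm22731 and 100 for Gm24738. The highest sums outside it were 97 for both n-R5s165 and n-R5s187, and 92 for Gm26280.

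All mice were wildtype females of the strain C57BL/6N, and none was treated. Blood of each mouse gave 2 libraries: the pellet of an ultracentrifugation of platelet-free plasma, enriched in extracellular vesicles (EVs), and the plasma left above it, which is depleted of EVs and holds freely circulating RNA (called plasma here). There were 3 mice of 2 months, 4 of 6 months, 3 of 8 months, 2 of 12 months and 2 of 18 months, and the submitters' protocol states that samples were kept apart. The pellet is enriched rather than purified. At 2 months, however, the plasma libraries of replicates 2 and 3 carried one code that names mice 3 and 4 together. Their pairing with the EV libraries is therefore uncertain, and whether they share plasma is not settled by the labels.

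Ribosomal RNA forms the core of the ribosome. In mammals, RNA polymerase I makes one long precursor that is cut into the 18S, 5.8S and 28S rRNAs, whereas 5S rRNA is made by RNA polymerase III from separate genes that stand in a tandem array. Beside the array, mammalian genomes hold many scattered 5S-like copies, most of them thought to be pseudogenes.

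Sequences of 194 of the 195 transcripts were found in the GENCODE M21 annotation of the GRCm38 build, and the counts of the 5S copies followed their sequence. Rn5s, 119 bases on chromosome 8, had 1990717 counts. It stood for 32 transcripts, 25 of them n-R5s copies, with the same sequence and the same count in every library, so that these rows repeated one measurement. All 32 lay on chromosome 8. A sum over copies therefore repeats that count.

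The last 55 bases of Rn5s were shared by 46 transcripts, 36 with n-R5s symbols and 10 with others, with 1686869 to 1990717 counts. The other 148 transcripts with a sequence shared at most 33 bases of that end, and the highest count among them was 363700, for n-R5s115. Of the 46, 42 lay on chromosome 8. The other 4, n-R5s194 on chromosome 3, n-R5s185 on chromosome 4, n-R5s33 on chromosome 16 and n-R5s2 on chromosome X, differed from Rn5s in their first part and kept its end. The copy n-R5s194 had 1739819 counts, and the 1689498 counts of n-R5s2 were 84.9% of those of Rn5s. Copies with a difference nearer to the end had fewer counts. The copy n-R5s115, which matched Rn5s without a difference over its first 2 and last 33 bases, had 18.3% of the counts of Rn5s. The end alone did not order the counts. Both n-R5s102 and n-R5s101 matched the last 26 bases. Of these, n-R5s102, which also matched the first 88 bases, had 9.27%, or 184552 counts, and n-R5s101, which matched the first 1, had 57513. Conversely, n-R5s193 on chromosome 4 matched the first 90 bases of Rn5s and lacked its end, and its 186310 counts were 9.36% of those of Rn5s. Of the 51 rRNA rows within the chromosome 8 array, all had at least 100 counts, and 9 lacked the shared end. These figures compare rows of nearly equal length and were not corrected for length.

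**Figure D1:**
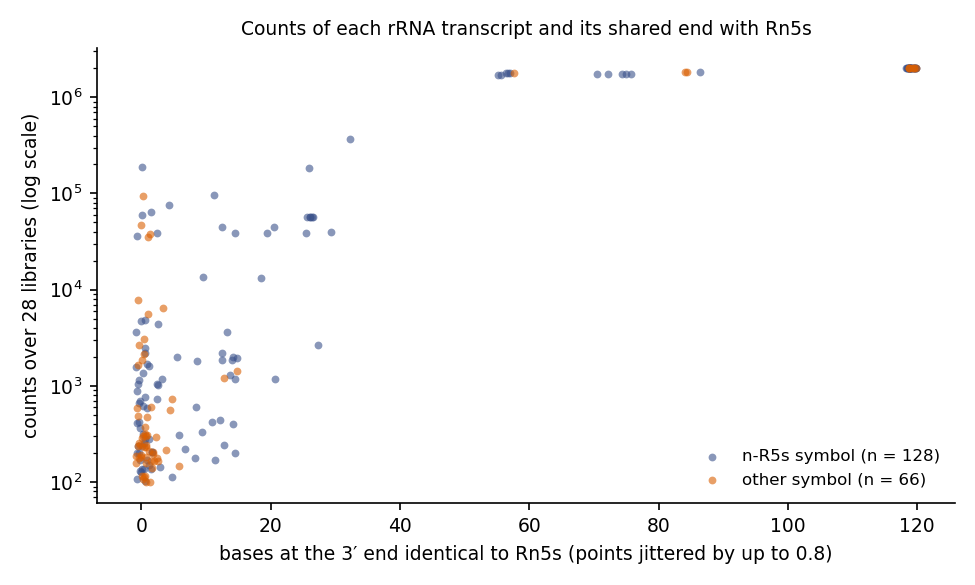
Counts summed over all 28 libraries (log axis) against the number of bases shared with the end of Rn5s, 1 point for each rRNA transcript with a sequence. The 46 transcripts that shared at least 55 end bases lay between 1686869 and 1990717 counts, and the highest of the other 148 had 363700.

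As a group, copies farther from Rn5s in sequence had lower counts, though not copy by copy. The copy n-R5s193, 18 edits away, had 186310 counts, and n-R5s71, 6 edits away, had 2689. Within 10 edits (substitutions, insertions or deletions) of Rn5s lay 64 transcripts, the 46 with the shared end among them, and 128 were farther away, with a median of 348 counts. The members lay on 21 chromosomes. The copy n-R5s1, annotated on chromosome Y and 7 edits from Rn5s, had 38662 counts and was counted in all 28 libraries, although every mouse was female. Copies on other chromosomes had nearly the same sums: n-R5s127 on chromosome 8 had 38676 counts and n-R5s151 on chromosome 7 had 38631. Reads shared by such copies cannot be assigned to one of them. Only 2 transcripts were closer to 5.8S rRNA than to 5S rRNA: n-R5-8s1, the annotated 5.8S copy, with 46930 counts, and Gm24601, with 94499 counts. Gm24601 lies at chr6:94826781-94826923 on the minus strand and was 41 edits from the 5.8S sequence. It is shown because it had the largest increase between the fractions.
Gm24601: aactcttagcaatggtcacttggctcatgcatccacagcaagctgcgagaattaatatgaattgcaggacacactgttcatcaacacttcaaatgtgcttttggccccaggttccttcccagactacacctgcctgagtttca

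A single row, CT010467.1, held 28376211 counts, the most of any rRNA transcript. In GENCODE M21 this name is a transcript of 1849 bases at chr17:39846353-39848201 on the minus strand. As background, this locus holds a copy of 18S rRNA, and the annotated strand is complementary to it. The first 60 bases are shown because the row outweighs all others.
CT010467.1: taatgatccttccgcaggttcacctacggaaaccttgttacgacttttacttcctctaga
The table lists a later version of this transcript whose length and strand could not be looked up, so its level was not compared with others per length.

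The libraries held 928651 to 23905651 counts in plasma (median 8673147) and 4764338 to 52753818 in EVs (median 12455662), of which rRNA took 133705 to 2907813 and 986389 to 22884308. The shallowest library was plasma of 6 months, replicate 1. Plasma and EV libraries thus differed in depth as well as in fraction. Levels are given as reads per 1000000 (RPM), as deposited. EVs of 12 months, replicate 2, the deepest library, had the highest count of 150 of the 195 transcripts and the highest RPM of 93. Counts above 0 in all 28 libraries were found for 100 transcripts.

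Did rRNA take the same part of both fractions? It did not: rRNA made up more of the EV libraries in each of the 14 mice. Its share of all counts was 39.4% ± 11.8 (SD, n = 14) in EVs and 11.0% ± 4.19 in plasma. In plasma the share was 14.6%, 12.7% and 12.4% at 2 months, 14.4%, 9.82%, 12.9% and 6.05% at 6 months, 17.4%, 10.5% and 16.6% at 8 months, 5.61% and 11.0% at 12 months, and 4.25% and 6.33% at 18 months. In EVs of the same mice it was 30.5%, 46.8% and 49.0%, then 46.3%, 43.6%, 20.7% and 33.4%, then 61.4%, 34.8% and 50.9%, then 25.1% and 43.4%, and finally 23.4% and 42.8%. The ranges of the fractions, 4.25% to 17.4% and 20.7% to 61.4%, did not overlap. The difference within mice was 28.4 ± 9.85 percentage points (exact two-sided sign-change test over 16384 changes, n = 14, p = 0.000122, the smallest this test allows). With each set of identical rows counted once, an alternative added after the data were seen, the shares were 30.7% ± 7.79 and 12.3% ± 3.74. The share of transfer RNA moved the other way, from 61.5% ± 11.1 in plasma to 32.1% ± 12.0 in EVs, and was lower in EVs in 14 of 14 mice. Shares of one total are bound to each other, and more RNA per vesicle and more vesicles cannot be told apart. The pellet was enriched rather than purified, so whether its rRNA lay in vesicles was not tested.

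**Figure D2:**
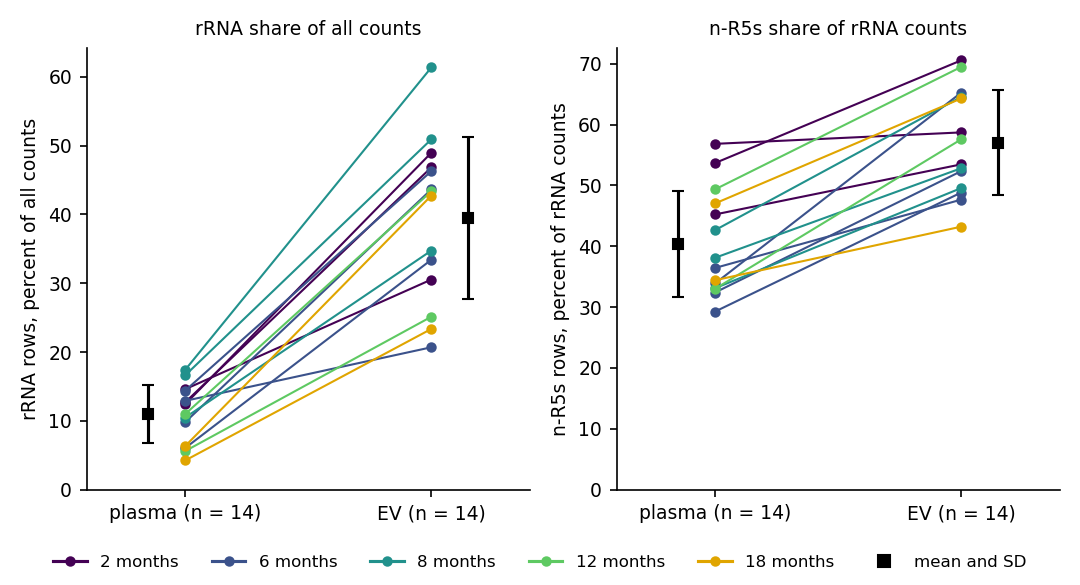
rRNA as percent of all counts and n-R5s rows as percent of rRNA counts (vertical axes), for plasma and EVs of each mouse, with lines joining the fractions of 1 mouse. Both shares were higher in EVs in 14 of 14 mice, and the rRNA shares of the fractions did not overlap. Rows with identical counts were each counted, as deposited.

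Within rRNA, the n-R5s rows took a larger share in EVs than in plasma. Rows with n-R5s symbols made up 57.0% ± 8.64 of rRNA counts in EVs and 40.4% ± 8.74 in plasma (SD, n = 14), a difference within mice of 16.6 ± 7.45 percentage points in the same direction in 14 of 14 mice (exact two-sided sign-change test, n = 14, p = 0.000122). The ranges were 43.2% to 70.6% and 29.3% to 56.8%, and 7 EV libraries were above all plasma libraries. Of the n-R5s rows, 25 repeat the Rn5s count. With each set of identical rows counted once, the n-R5s share was 33.1% ± 12.9 in EVs and 15.9% ± 6.23 in plasma. That share was higher in EVs in 14 of 14 mice, and this alternative was added after the data were seen. CT010467.1 made up 48.3% ± 11.2 of rRNA counts in plasma and 27.1% ± 11.0 in EVs, and was lower in EVs in 14 of 14 mice. Without CT010467.1 the difference in the n-R5s share was 0.189 percentage points, higher in 11 of 14 mice (exact test, n = 14, p = 0.0122). The split by symbol thus mostly set 5S against this one row.

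The ratio of Rn5s to CT010467.1 sets 1 row against 1 row. For each 100 counts of CT010467.1, plasma held 1.30 to 6.16 counts of Rn5s (median 2.08) and EVs 2.67 to 19.6 (median 5.38). The ratio was higher in EVs in 14 of 14 mice, and the fractions overlapped. The 3 plasma libraries of 2 months had 6.16, 3.14 and 4.71, and the 4 of 6 months had 1.53, 1.30, 1.91 and 1.63. In EVs the highest ratios were 19.6 in replicate 3 of 2 months and 17.1 in replicate 2 of 12 months.

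The 5S groups also shared out differently. As a percent of rRNA counts, the 46 shared-end copies were at 36.0% to 70.6% in plasma (median 46.3%) and 54.1% to 88.7% in EVs (median 69.6%), higher in EVs in 14 of 14 mice. The 18 other copies within 10 edits were 0.957% ± 0.393 and 0.910% ± 0.212, and the 128 more distant copies 0.648% ± 0.198 and 0.513% ± 0.114. Both of those groups overlapped widely. The pair nearer to 5.8S rRNA made up 0.104% ± 0.0289 of plasma and 0.151% ± 0.0799 of EV rRNA counts. Counted once per set of identical rows, CT010467.1 took 81.7% of plasma and 62.5% of EV rRNA counts, and the shared-end copies 15.5% and 33.8%. That count turned the order of the other groups. The copies within 10 edits then stood at 1.46% in plasma and 2.04% in EVs, higher in EVs in 12 of 14 mice, where the deposited rows had 8 of 14. The more distant ones stood at 1.16% and 1.30%, higher in EVs in 9 of 14 mice, where the deposited rows had 4 of 14.

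Transcript by transcript, most rRNA rows were higher in EVs. Of the 195 transcripts, 190 passed the filter (over 10% of a fraction's libraries at 1 RPM or above), 161 of them in both, 25 in EVs only and 4 in plasma only, and 5 in neither. In a quasi-likelihood test with edgeR across all 22323 RNAs, with Benjamini-Hochberg adjustment, 156 were higher in EVs and 6 lower, where 10.0% of all RNAs were called higher and 7.08% lower. Because a transcript that passed in one fraction only had to differ, the 161 that passed in both are given too: 131 were higher and 3 lower, beside 11.1% and 5.97% of all such RNAs. With library scaling by miRNAs alone, 136 were higher and 8 lower, while the calls over all RNAs went from 2234 higher and 1581 lower to 768 and 5927. The median log2 change from plasma to EVs was 2.25 over the 190 and -0.02 over all RNAs, and 1.55 and -0.66 when scaled by miRNAs. EV RPM exceeded plasma RPM in every mouse for 75 of the 190 and for 1.48% of all RNAs, and was below it in every mouse for 0 of the 190 and for 4.33% of all. Of these 75, 46 were the shared-end copies, which held 9 distinct count profiles. Counting identical rows once left 149 tested, of which 115 were higher and 6 lower.

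The copies sharing the end of Rn5s had the largest median change of the 5S groups. All 46 were higher in EVs, by log2 3.10 to 3.42. These 46 rows held 9 distinct count profiles, and 11.1% of all RNAs that passed in both fractions were called higher. Rn5s had 810.1 to 5935 RPM in plasma (median 2089) and 2893 to 32034 RPM in EVs (median 9873), with overlap between 2893 and 5935. Its plasma values were 5935, 2515 and 4329 RPM at 2 months, 2041, 810.1, 1224 and 896 at 6 months, 3459, 1101 and 2136 at 8 months, 949 and 4617 at 12 months, and 901 and 2537 at 18 months. In EVs the values were 8161, 11300 and 30971 RPM, then 11204, 7071, 2893 and 8978, then 22871, 5243 and 10768, then 6883 and 32034, and finally 5175 and 23207. Every EV library was above the plasma library of the same mouse, and the change was log2 3.10 ± 0.52 (SE, edgeR adjusted p = 6.78e-05), or 2.32 with scaling by miRNAs. The copies with changes in their first part, n-R5s2 (log2 3.42), n-R5s33 (3.42), n-R5s194 (3.35) and n-R5s185 (3.36), were called as well. The difference between their changes and that of Rn5s was not tested.

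**Figure D3:**
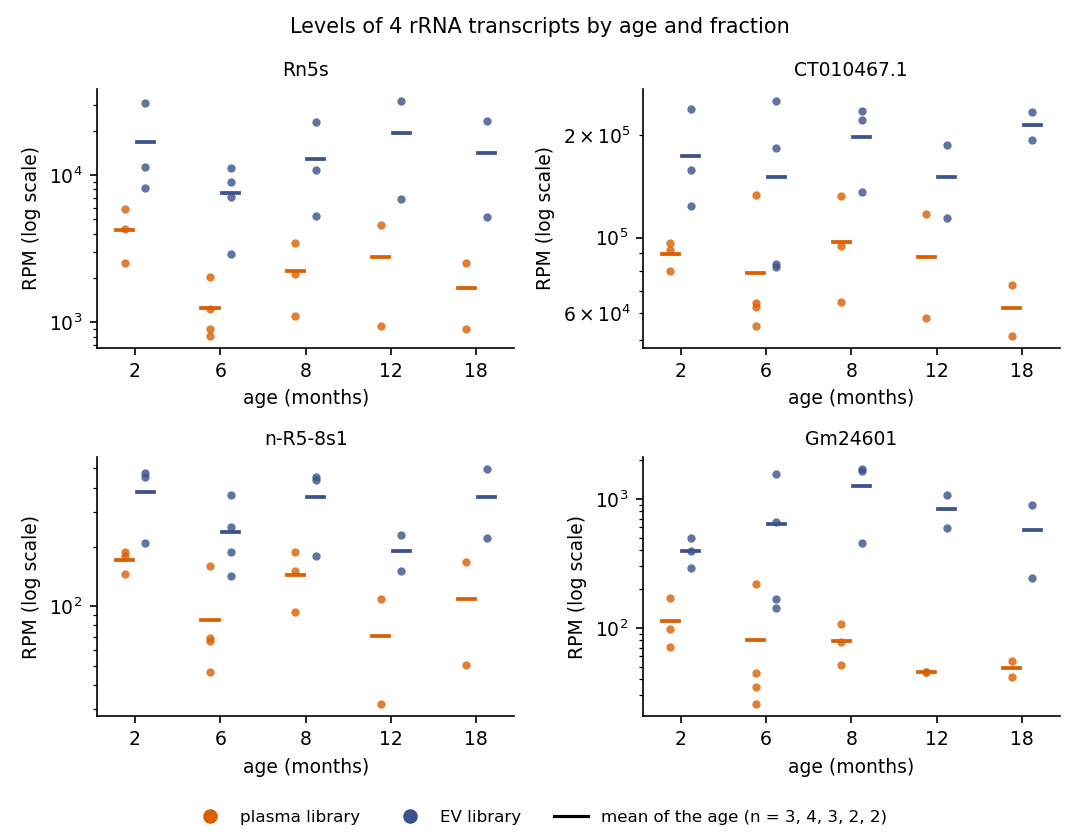
RPM (log axis) of the leading rRNA transcripts against age in months, 1 point for each library, with plasma and EVs in separate colours. Rn5s lay between 810.1 and 5935 RPM in plasma and between 2893 and 32034 RPM in EVs, and no slope with age was called in either.

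CT010467.1 had 51580 to 133222 RPM in plasma (median 76381) and 81810 to 252085 RPM in EVs (median 185246). It was higher in EVs in 14 of 14 mice, and the change was log2 1.73 ± 0.40 (SE, edgeR adjusted p = 0.00240), or 1.02 with scaling by miRNAs and 1.00 by total counts. The 5.8S copy n-R5-8s1, whose RNA pairs with 28S rRNA in the large subunit, had 31.9 to 189 RPM in plasma (median 127) and 142 to 497 RPM in EVs (median 240). The groups overlapped between 142 and 189, and the change was 2.03 ± 0.39 (adjusted p = 0.000327). Over the alternative settings it ranged from 1.30 to 2.11. Gm24601, the distant relative of 5.8S, had the largest change of the 195. It had 25.7 to 218 RPM in plasma (median 53.8) and 143 to 1701 RPM in EVs (median 546), and 2 plasma libraries, at 169 and 218 RPM, reached into the EV range. The change was 4.12 ± 0.52 (adjusted p = 1.14e-06), and 3.30 to 4.33 over the alternative settings.

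Of the 18 copies within 10 edits of Rn5s that lacked its end, all 18 were higher in EVs, with a median log2 change of 2.05. These 18 rows held 15 distinct count profiles, and 11.1% of all RNAs that passed in both fractions were called higher. In the copy n-R5s195, 8 edits away on chromosome 3, plasma had 15.9 to 90.0 RPM and EVs 104 to 673 RPM, without overlap, and the change was 3.31 ± 0.43 (edgeR adjusted p = 1.38e-06). The copy n-R5s210 on chromosome 1, 10 edits away, had 1.99 to 38.1 RPM in plasma and 30.6 to 199 RPM in EVs, with little overlap and a change of 3.61 ± 0.48 (adjusted p = 2.64e-06). The copy n-R5s115 changed by 3.08 ± 0.51. In n-R5s102, which differs from Rn5s near the end, the change was 2.16 ± 0.53 (adjusted p = 0.00405).

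Of the 123 tested copies more than 10 edits from Rn5s, 89 were higher in EVs and 6 lower, with a median of 1.74. Of all RNAs tested, 10.0% were called higher and 7.08% lower. Of the 94 that passed the filter in both fractions, 64 were higher and 3 lower, with a median of 1.64. Of all RNAs that passed in both, 11.1% were called higher and 5.97% lower. All 25 transcripts that passed in EVs only were called higher, but the filter favoured that direction, so this is a description. Among the higher ones, n-R5s21 on chromosome 19 had 0.354 to 3.43 RPM in plasma and 2.92 to 14.7 RPM in EVs, the smallest p of all 195 transcripts, and a change of 3.13 ± 0.39 (edgeR adjusted p = 9.39e-07) in 13 of 14 mice. Gm23381 on chromosome X had 0 to 3.55 RPM in plasma and 4.78 to 38.7 RPM in EVs, without overlap, and changed by 3.68 ± 0.51 (adjusted p = 5.28e-06). By symbol, 112 of 127 tested n-R5s rows were higher and 2 lower (median 2.38), and 44 of 63 others were higher and 4 lower (median 1.86). Among those that passed in both fractions, it was 102 and 1 of 115 (median 2.47), and 29 and 2 of 46 (median 1.71). The shares of all RNAs given above, for those tested and for those past the filter in both, apply here too.

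**Figure D4:**
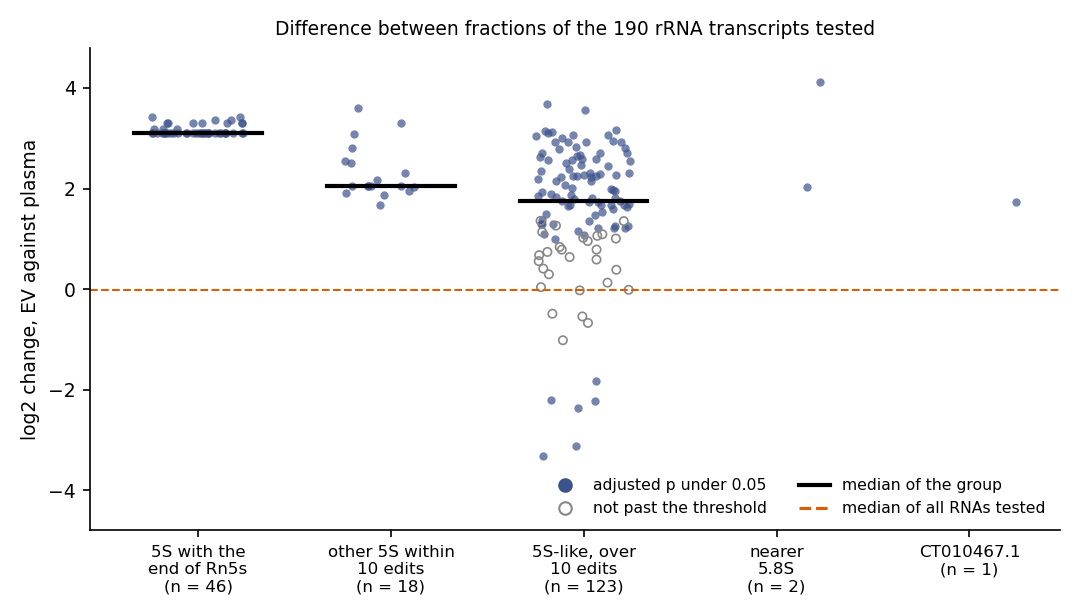
Log2 change from plasma to EVs (edgeR) of each tested rRNA transcript, shown by sequence group. The 46 copies with the end of Rn5s stood at log2 3.10 to 3.42, and all 6 transcripts called lower were more than 10 edits from Rn5s.

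Rows that carry the start of Rn5s without its end had smaller log2 changes than those that carry the end, a difference that was not tested. Plasma levels of n-R5s193 were 97.9 to 1560 RPM (median 223) and EV levels 194 to 2650 RPM (median 963), with a change of 2.15 ± 0.53 (edgeR adjusted p = 0.00426). As a percent of Rn5s counts in the same library, n-R5s193 stood at 13.7% ± 6.40 in plasma (7.34% to 33.8%) and 9.12% ± 4.45 in EVs (2.82% to 21.5%), higher in EVs in 3 of 14 mice. The highest value, 33.8%, was in plasma of 12 months, replicate 2. For n-R5s2, which carries the end without the exact start, the percent was 73.2% ± 12.9 in plasma (52.2% to 88.4%) and 85.4% ± 7.69 in EVs (63.8% to 94.6%), higher in EVs in 11 of 14 mice. These ratios were noticed in the data and are given without a test.

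**Figure D5:**
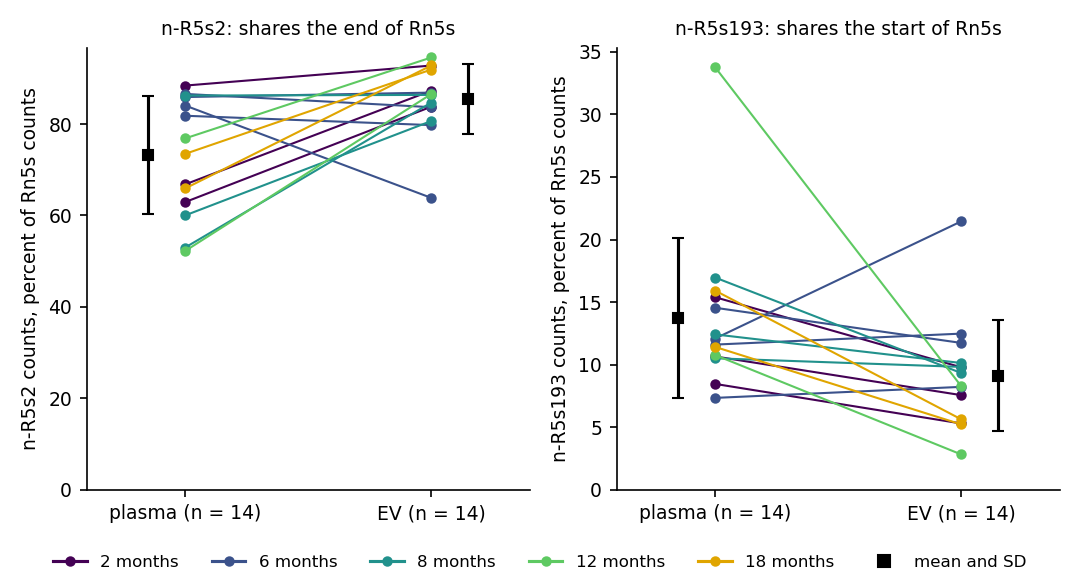
Counts of n-R5s193 (start of Rn5s only) and n-R5s2 (end of Rn5s, changed start) as percent of Rn5s counts in each library, for plasma and EVs, with lines joining the fractions of 1 mouse. The first was higher in EVs in 3 of 14 mice and the second in 11 of 14.

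The 6 transcripts lower in EVs were all distant from Rn5s. Their summed counts ran from 151 for n-R5s196 to 2454 for n-R5s219 and 2633 for Gm24931. Of the 6, n-R5s196, Gm25908 and Gm22853 passed the filter in plasma only, which favoured a lower EV value, so their changes are given as a description. For the pair with the largest changes, 1 plasma library held most of the counts. The copy n-R5s219 on chromosome 1 had 79.0 and 217 RPM in plasma of 12 months and 0 to 22.9 RPM in the other plasma libraries, against 0 to 3.26 RPM in EVs. Its change was -3.32 ± 0.78 (edgeR adjusted p = 0.00263), and -2.20 without replicate 2 of 12 months, which alone held 73.4% of its counts. It was -2.03 with the mouse as a block. Gm24931 on chromosome 5, named after its values were seen, had 76.5% of its counts in the same library. It changed by -3.12 ± 0.84 (adjusted p = 0.00842), by -2.01 without that mouse and by -1.74 with the block. The copy n-R5s196 on chromosome 3 had 0 to 4.20 RPM in plasma (median 0.806) and 0 to 0.419 RPM in EVs (median 0.176), with a log2 change of -2.36 ± 0.54. For Gm25908 it was -2.20 ± 0.52 and for Gm22853, also named after its values were seen, -1.84 ± 0.48. For Gm24991 the change of -2.23 ± 0.72 (edgeR adjusted p = 0.0290) did not hold: with the mouse as a block it was -1.61 (adjusted p = 0.200), and the call was lost without any one of 4 mice (6 months replicate 2 or 3, 8 months replicate 2, 18 months replicate 1), with adjusted p up to 0.128. One count was worth 0.114 to 1.70 RPM in plasma and 0.0722 to 0.217 RPM in EVs, so the levels of n-R5s196, Gm25908 and Gm22853 were near single counts in the shallow libraries.

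Ranks within rRNA by mean share moved most for scarce copies. Gm24991 went from rank 82 in plasma to 177 in EVs and n-R5s196 from 118 to 195. In the other direction, Gm23115 went from 193 to 136 and Gm23964 from 192 to 137. Gm23115 and Gm23964 passed the filter in EVs only, which favoured a higher EV value, and their log2 changes were 3.11 and 3.17.

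Did rRNA change with age? No transcript passed the test in either fraction. In plasma, 0 of 165 tested transcripts had a slope with age (edgeR quasi-likelihood test, Benjamini-Hochberg adjusted p), beside 0.0139% of all RNAs, and 17 had an unadjusted p under 0.05 (8 rising), beside 7.29% of all. That count was unstable: it was 68 (5 rising) with total counts in place of TMM, beside 3.76% of all, 33 without replicate 2 of 12 months, 26 (23 rising) without replicate 1 of 2 months, and 8 without replicate 3 of 2 months. In EVs it was 0 of 186 beside 0.0% of all, and 0 at an unadjusted p under 0.05 beside 5.8% of all. The difference between the slopes of the fractions passed for 0 of 190 beside 0.0%, and 8 had an unadjusted p under 0.05 beside 4.0%. With the mouse as a block, 0 passed as well, and 43 (33 of them more positive in EVs) had an unadjusted p under 0.05 beside 6.12%. All these counts are of rows, and 32 rows repeat the Rn5s measurement. With identical rows counted once, 15 of 124 had an unadjusted p under 0.05 in plasma, beside 1499 of all 20957. For the difference between the slopes it was 6 of 149, beside 882 of all 21623. The 68 and the 43 were not recounted in this way. DESeq2 called 0 in each of the 3 comparisons. The slope of Rn5s was -0.06 ± 0.05 log2 units per month in plasma (adjusted p = 0.874) and 0.02 ± 0.07 in EVs (adjusted p = 0.987). For CT010467.1 it was -0.03 ± 0.05 in plasma and 0.01 ± 0.07 in EVs. The EV slopes of both turned negative when libraries were scaled on miRNAs or on total counts, and none of these slopes was called.

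Values of 12 and 18 months lay wholly below those of 2 months in plasma for 13 of 165 transcripts, beside 2.82% of all RNAs, and wholly above for 9, beside 8.75%. In EVs 2 of 186 lay below, beside 1.02%, and 0 above, beside 3.03%. The smallest p in plasma belonged to 3 rows of nearly equal counts on chromosome X, Gm24509, Gm25358 and Gm26152, named after their values were seen. Gm24509 had 165 counts in all. Its plasma RPM was 0.245, 0 and 0.114 at 2 months, 0, 0.531, 0.236 and 0.878 at 6 months, 0.354, 0.513 and 0.631 at 8 months, 0.664 and 0.482 at 12 months, and 2.30 and 1.74 at 18 months. The 18-month mice were above all others. The slope was 0.19 ± 0.04 per month (edgeR adjusted p = 0.133), and it passed without a filter on low values (adjusted p = 0.0172), where 5 transcripts rose and 2 fell with age, beside 0.858% of all RNAs called in that fit. In EVs Gm24509 had 0.896, 1.14 and 1.29 RPM at 2 months and 0.487 and 0.927 at 18 months.

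The rRNA share showed no relation to age that passed after adjustment. In plasma, Spearman's rho with age was -0.459 (permutation test, p = 0.0998, adjusted over 8 relations 0.399) and Pearson's r -0.612 (p = 0.0197, adjusted 0.158). Both 18-month values, 4.25% and 6.33%, were among the 4 lowest. Without the 2 mice of 18 months r was -0.305 (permutation p = 0.332), so the relation rested on those mice. In EVs rho was -0.229 (permutation p = 0.427) and r -0.237 (p = 0.414, both adjusted 0.696), and r was -0.0977 without the 18-month mice (p = 0.760). For the n-R5s share of rRNA, rho was -0.180 in plasma (permutation p = 0.538, adjusted 0.717) and -0.124 in EVs (p = 0.670, adjusted 0.746). Pearson's r was -0.227 (permutation p = 0.435, adjusted 0.696) and -0.0940 (p = 0.746, adjusted 0.746), and without the 18-month mice -0.417 (p = 0.177) and 0.0649 (p = 0.838). The 2 oldest ages had 2 mice each.

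Other RNAs of ribosome making were measured beside the rRNA rows. Over all RNAs tested, 10.0% were called higher in EVs and 7.08% lower. Of 12 listed RNAs that process rRNA, 10 had a row, 9 were tested and 6 were higher in EVs, with 0 lower and a median log2 change of 1.54. The RNA of RNase MRP, Rmrp, changed by 2.63, and the snoRNAs Snora73a and Snora73b, known from 18S processing, by 3.11 and 3.08. Snord14c, Snord14d and Snord14e changed by 1.54, 1.56 and 1.35. Counts were nearly equal for Snora73a and Snora73b (17313 and 16721) and for Snord14c and Snord14d (578 and 573). Whether such rows counted the same reads was not tested. Values of those that did not pass were 0.29 for Snord118, 0.18 for Snord22 and 1.17 for Snord14a. Of 8 listed RNA polymerase III transcripts outside the ribosome, 7 were tested, 3 were higher and 0 lower (median 0.58): the transcription regulator Rn7sk changed by 1.41, the Y RNA Rny3 by 1.81 and the vault RNA Vaultrc5 by 1.81. The 7SL genes Rn7s1 and Rn7s2 were at 0.58, Rny1 at 0.48 and Bc1 at -0.36, none called. Of 12 listed names for rRNA of other loci or classes, Rn5s alone had a row. No RNA of these lists passed the age tests.

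Marker miRNAs of blood cells and organs overlapped between the fractions. Summed RPM of 6 red cell miRNAs was 750.2 to 3376 in plasma (median 1207) and 551.3 to 4599 in EVs (median 1121), higher in EVs in 7 of 14 mice. The 5 platelet miRNAs summed to 244 to 952 RPM in plasma (median 476) and 275 to 1554 RPM in EVs (median 424), also in 7 of 14 mice. The 3 liver miRNAs were at 13.5 to 164 RPM and 18.0 to 233 RPM, and the 4 skeletal muscle miRNAs at 0.757 to 8.01 and 0.489 to 8.08 RPM, higher in EVs in 10 and 9 of 14 mice. No listed miRNA was at 0 in all libraries. The part of these cells in the rRNA values was not tested.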

How the data were processed

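Small RNA of EV pellets and EV-depleted plasma was sequenced from 14 mice, 1 library per fraction and mouse. The authors deposited estimated counts per RNA, whole numbers for every rRNA row, and a table of the same counts scaled to 1000000 (RPM), a signal in which each library was divided by 1 number. RPM sums exceed 1000000 in most libraries, and copies of identical sequence hold identical counts. The submitters' processing notes name R 4.0.4 and mm10. The aligner, the counting and its treatment of strand were not given in the sources used here for these files. No unused column of another series was present.

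Groups were taken from the sample labels. Estimated counts were rounded, and RNAs were kept if over 10% of a fraction's libraries had at least 1 RPM. They were tested in edgeR 4.0.16 (R 4.3.3) with TMM scaling, quasi-likelihood tests and Benjamini-Hochberg adjustment over all RNAs tested at 0.05, with age linear in months. DESeq2 1.42.0 was an alternative. Shares were compared within mice by exact sign changes, and with age by permutation tests of 100000 resamples (scipy 1.17.1). Scripts were tested on simulated counts. Sequences, edits and coordinates came from GENCODE M21 (GRCm38). The base sequences of the 5S copies are not reported here. Replicates were labelled as separate animals, apart from the shared code at 2 months.

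Members, gene lists and tests were chosen with earlier results of these data known. Named were the 10 n-R5s and 10 other rows with most counts, the 3 smallest p and 3 largest changes moving alike in every mouse in each comparison and direction, the rows around the threshold and the largest rank shifts, beside the transcripts that carry the sequence comparison and those marked as named afterwards. EV and plasma libraries pair by the labelled mouse. The correlation of same-mouse deviations from the age means over 154 distinct member profiles ranged from -0.198 to 0.780. At 12 and 18 months, with 2 mice each, the deviations mirror each other, so both mice of an age must give the same value. The highest value, 0.780, is that of the 12-month mice. The block by mouse was an alternative for the edgeR tests.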

Additional observations from a re-analysis of the deposited data

Results flagged for a closer look

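In groups of 4 libraries (the 6-month mice only, 60 groups of values tested), 4 values stood apart from the other 3, by a test in which chance flags about 1 in 20 groups. In EVs of 6 months, replicate 4 had 11.0 counts of Rn5s for each 100 of CT010467.1, where the others had 3.45 to 4.44. In plasma of 6 months, replicate 1, the shallowest library, had 133222 RPM of CT010467.1, where the others had 55054 to 64246. The same library had 218 RPM of Gm24601, where the others had 25.7 to 44.3. In EVs of 6 months, replicate 2 had 1.15 RPM of Gm24991, and the other 3 were at 0. The causes were not tested.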

How the results depend on the processing

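A tested value was labelled the same if it kept direction and side of the threshold. Counts of transcripts were labelled the same if they stayed of similar size. Of the recomputed values behind the comparisons, 218 stayed the same, 4 reversed, 4 became stronger and 2 weaker. For single transcripts it was 811, 13, 1 and 7. The number of transcripts differing between the fractions (162, 156 higher and 6 lower) fell to 104, all higher, with a filter of 5 RPM in 50% of libraries, and to 106 (104 and 2) with a threshold of 1000 counts, both by fewer transcripts tested. It was 165 with DESeq2 (160 higher, 5 lower), and 152 to 163 without single mice. Scaling shifted all RNAs: the median log2 change was -0.02 with TMM, -0.66 with TMM on miRNAs, -0.45 with RPM scaling and -0.51 with total counts. The calls over all RNAs then went from 2234 higher and 1581 lower to 768 and 5927, 1010 and 4349, and 669 and 1842. Those of rRNA were 136 and 8, 139 and 8, and 132 and 7, with medians of 1.55, 1.66 and 1.58. Counting identical rows once was chosen after seeing the data (121 called).

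The age count in plasma went from 0 to 7 without a filter (5 rising, 2 falling, where 367 of all 65868 RNAs rose and 198 fell), and stayed at 0 without single mice, as did those in EVs and of the interaction. For the plasma rRNA share with age, Pearson's r was -0.612 (permutation p = 0.0197), and rho ranged from -0.568 to -0.327 without single mice, passing 0.05 only without 8-month replicate 1 or 3. Without single mice rho ranged from -0.347 to -0.0931 for the EV rRNA share, and turned positive for the n-R5s share in plasma (-0.319 to 0.0169) and EVs (-0.246 to 0.0762). The differences between the fractions ranged from 27.2 to 30.0 percentage points for the rRNA share and from 15.5 to 17.8 for the n-R5s share. EV age slopes (log2 per month) that turned negative were -0.0283, -0.0337 and -0.0245 for Rn5s, CT010467.1 and Gm23647 with TMM on miRNAs, and -0.0221, -0.0211 and -0.0176 with total counts. The lowest without single mice were -0.0139, -0.00558 and -0.0115, and the highest 0.0702, 0.0344 and 0.0753. CT010467.1 was at -0.000583 without the 18-month mice, and its interaction at -0.00559 with TMM on miRNAs. The cause was not tested.

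Pairing was given by the labels. With the replicate block by mouse, 160 transcripts differed between the fractions (155 higher, 5 lower) and 0 in the interaction. Of the named transcripts only Gm24991 lost its call, which it also lost with DESeq2 (-2.16, adjusted p = 0.0862) and with age as a factor (-2.01, adjusted p = 0.0844). Without the block, the share differences of 28.4 and 16.6 percentage points had permutation p = 1e-05, the smallest the resamples can give, and 7e-05. Without the 2 mice of uncertain pairing 143 transcripts differed. Ages of 12 and 18 months rested on 2 mice each, RNA was measured only as fragments that small RNA libraries capture, and reads shared by copies cannot be assigned to one of them.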

Other observations

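The RNAs whose log2 RPM followed the summed rRNA RPM most closely over the 28 libraries were all annotated as piRNAs: URS000019824D (Pearson's r 0.971), URS0000273971 (0.961) and URS0000513774 (0.951). The libraries share the fraction contrast and depth, so these coefficients are a description. The sequences of these rows were not compared with rRNA here.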
